A study of Mus musculus with 12 samples.

Results

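Stem cells from mouse bone marrow were compared with stem cells from the aorta-gonad-mesonephros region (AGM), the tissue around the dorsal aorta of the embryo, by plate-based single-cell RNA sequencing. Plates were chosen by the tissue and the word HSC (haematopoietic stem cell) in their titles. A well was kept as a cell when it held at least 1000 genes, at least 3000 UMIs (unique molecular identifiers, each marking 1 captured RNA molecule) and under 20% of its UMIs from mitochondrial genes. This left 423 bone marrow cells of 480 wells, with 95, 96, 71, 81 and 80 on plates 1 to 5, and 143 AGM cells of 192 wells, with 95 and 48 on plates 1 and 2. Together they were 566 of the 1020 cells that passed in the whole series, whose other 454 cells came from fetal liver.

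Bone marrow plates 1 to 3 carried 1 origin code in their titles, bone marrow plates 4 and 5 a second code, and AGM plates 1 and 2 a single code. The series used the DARLIN mouse line, in which an editable DNA barcode records the ancestry of each cell, and read DNA methylation, chromatin accessibility, RNA and lineage from the same cells. By the labels' protocols, nuclei were held back on beads to leave cytoplasmic RNA. How far nuclear RNA was kept out was not tested. The labels gave no genotype, strain, age, sort marker or animal count for these plates, and did not say whether a code was 1 animal or a pool. For bone marrow plates 4 and 5 the tissue stood in the title alone. All plates carried the same 96 well barcodes, so a cell was identified by its plate and well together.

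In the embryo, the first stem cells of the blood arise in the AGM from haemogenic endothelium, cells of the arterial wall that turn on the factor Runx1, lose their endothelial junctions and are released as blood cells. Their descendants multiply in the fetal liver and later settle in the bone marrow, where stem cells of adults divide rarely. MHC class I molecules show peptides from inside the cell to cytotoxic T cells and natural killer cells, and MHC class II molecules show peptides to helper T cells.

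UMIs were summed over the kept cells of each origin code. Bone marrow gave 24699454 and 6086932 UMIs from its 2 codes and AGM gave 24323995 UMIs. The median cell held 59558 UMIs and 2631 genes in bone marrow, against 159228 UMIs and 5513 genes in AGM. Shares of cells were therefore also read after every cell was thinned to 20000 UMIs. This kept 392 bone marrow and 141 AGM cells and left out 31 and 2 that were shallower. The thinned median was still 1915 genes in bone marrow and 3370 in AGM. Shares of cells and counts of list genes per cell have to be read beside that gap. Levels are given as CPM, UMI counts scaled to a common library total with TMM factors, averaged over origin codes for a tissue. Differences were tested by edgeR's quasi-likelihood test with Benjamini-Hochberg adjustment over all 15472 tested genes, and a gene was called at an adjusted p under 0.05. The fit included 2 fetal liver codes to estimate the spread; with 1 AGM code, the spread between AGM animals was not measured. One plate moved that estimate most: without fetal liver plate 4, 329 genes were called in place of 1380, while 1148 were called without fetal liver plate 5 and 1121 without the whole code of plates 4 and 5. Of the 136 called among 157 genes followed through every alternative, 51 lost their call without fetal liver plate 4 and 10 without the whole code.

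The labels were checked against defining markers. After thinning, bone marrow cells held the blood stem cell markers Ly6a in 73.0%, Hlf in 58.2%, Kit in 46.9%, Mecom in 39.3%, Procr in 33.7%, Ptprc in 32.9% and Runx1 in 15.8% of cells. The endothelial marker Cdh5 was at 0 in all 392 thinned bone marrow cells, which allows a share with a UMI at that depth of up to 0.765%. This does not bound the share of cells that hold the RNA. AGM cells held Mecom in 73.0%, Runx1 in 73.0%, Procr in 92.2%, Kit in 66.7%, Hlf in 49.6%, Ly6a in 26.9% and Ptprc in 22%, together with Cdh5 in 67.4%. Cdh5 and the pan-blood gene Ptprc were found together in 0 of 392 thinned bone marrow cells and 23 of 141 thinned AGM cells (16.3%), and with all UMIs in 0 of 423 bone marrow and 51 of 143 AGM cells. With all UMIs, at least 3 genes of a mesenchymal and smooth muscle list were present in 3 of 423 bone marrow cells (0.709%) and 98 of 143 AGM cells (68.5%), the cells left out wherever mesenchymal-marker cells are named below. After thinning they were present in 1 of 392 bone marrow cells (0.255%) and 27 of 141 AGM cells (19.2%). With all UMIs, Cdh5 was present in 139 of the 143 AGM cells. Xist and Y-linked RNA showed that the codes differed in sex: bone marrow plates 1 to 3 held 55 cells with Xist alone and 3 with Y-linked RNA alone, bone marrow plates 4 and 5 held 39 and 40 cells with Y-linked RNA alone and 0 with Xist, and the AGM plates held 33 cells with Xist alone and 39 with Y-linked RNA alone. The single AGM code thus held cells of both sexes. Both RNAs were found together in 1 of 423 bone marrow cells and 9 of 143 AGM cells, 7 on AGM plate 1 and 2 on plate 2. Whether such wells held more than 1 cell was not tested.

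Of 15472 tested genes, 1380 (8.92%) were called, 819 (5.29%) higher and 561 (3.63%) lower in bone marrow than in AGM. The median log2 difference over all tested genes was 0.04. With raw library totals in place of TMM scaling, the split became 525 higher and 725 lower and that median became -0.20. Leaving out the mesenchymal-marker cells gave 915 higher and 669 lower, and leaving out bone marrow plate 5 gave 499 higher and 365 lower. The plates of both tissues did not overlap at all for 25.9% of tested genes, 10.9% with bone marrow above AGM and 15.1% with bone marrow below it.

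**Figure D1:**
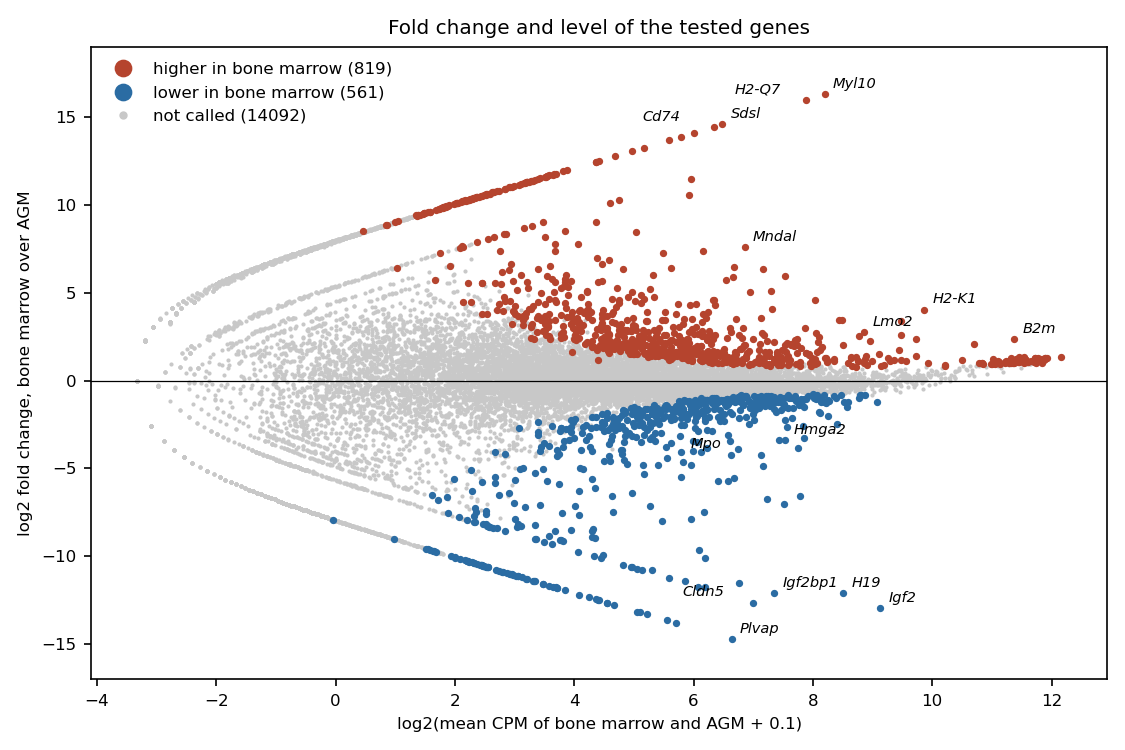
Each point is 1 of 15472 tested genes, placed by its mean level (log2 CPM, x axis) and its log2 difference, bone marrow minus AGM (y axis). The 819 genes higher and the 561 genes lower in bone marrow at an adjusted p under 0.05 are coloured; the outer lines of points are genes with no UMI in 1 of the tissues.

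The largest rises in bone marrow were genes with many UMIs in marrow and none in AGM. Myl10, a myosin regulatory light chain gene, had 841, 1041, 913, 277 and 215 CPM on bone marrow plates 1 to 5, against 0 on both AGM plates. Sdsl, a serine dehydratase-like gene, had 249, 221, 201, 115 and 134 CPM on the bone marrow plates, against 0 on both AGM plates. Otos, named for otospiralin of the inner ear, had 125, 94.0, 58.4, 119 and 126 CPM on the bone marrow plates, against 0 on both AGM plates. Against a floor of 3 UMIs over the whole AGM, Myl10 was at least 7559-fold higher, Sdsl at least 1970.4-fold higher and Otos at least 950.0-fold higher (adjusted p of 4.12e-09, 5.36e-08 and 5.53e-09 by edgeR's quasi-likelihood test). Myl10 was present in 79.1% of 392 thinned bone marrow cells and in 0 of 141 thinned AGM cells. The latter allows a share of AGM cells with a UMI at that depth of up to 2.13%. The other 5 of the 8 leading rises were antigen presentation genes: the class I chains H2-Q7 and H2-Q6 and the class II pathway genes Cd74, H2-DMb1 and Ctss, the last encoding the protease cathepsin S. Without AGM plate 1, which held more of the AGM UMIs, the floor gives bounds between 163-fold (Ctss) and 2574-fold (Myl10) for the 8 genes. The bounds pool UMIs over both marrow codes, which differed: for Myl10 the bound was 2234-fold with bone marrow plates 1 to 3 left out and 8568-fold with plates 4 and 5 left out, and for Sdsl and H2-Q6 it was 1175-fold and 843-fold without plates 1 to 3.

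The largest falls were Igf2 and 7 genes with no UMI in bone marrow. Plvap, which builds the diaphragms of endothelial pores, Cdh5, the cadherin of endothelial junctions, and Mmrn2, an endothelial matrix protein, led them. The others were Mogat2, an acyltransferase of fat absorption, Ddah1, which breaks down an inhibitor of nitric oxide synthase, F10, coagulation factor X, and Nrep. Plvap had 0 CPM on all 5 bone marrow plates, against 209 and 184 CPM on the AGM plates. Cdh5 had 0 on all 5 bone marrow plates, against 120.3 and 75.7 CPM on the AGM plates. Against a floor of 3 UMIs over bone marrow, Plvap was at least 2029-fold lower, Cdh5 at least 1063-fold lower and Nrep, the smallest of the 7 bounds, at least 518-fold lower in bone marrow (adjusted p of 1.94e-10, 1.3e-08 and 1.96e-06, edgeR). Without bone marrow plate 1 these bounds became 1372-fold, 719-fold and 350.2-fold, and without bone marrow plates 1 to 3 they became 364.5-fold, 191-fold and 93.0-fold.

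**Figure D2:**
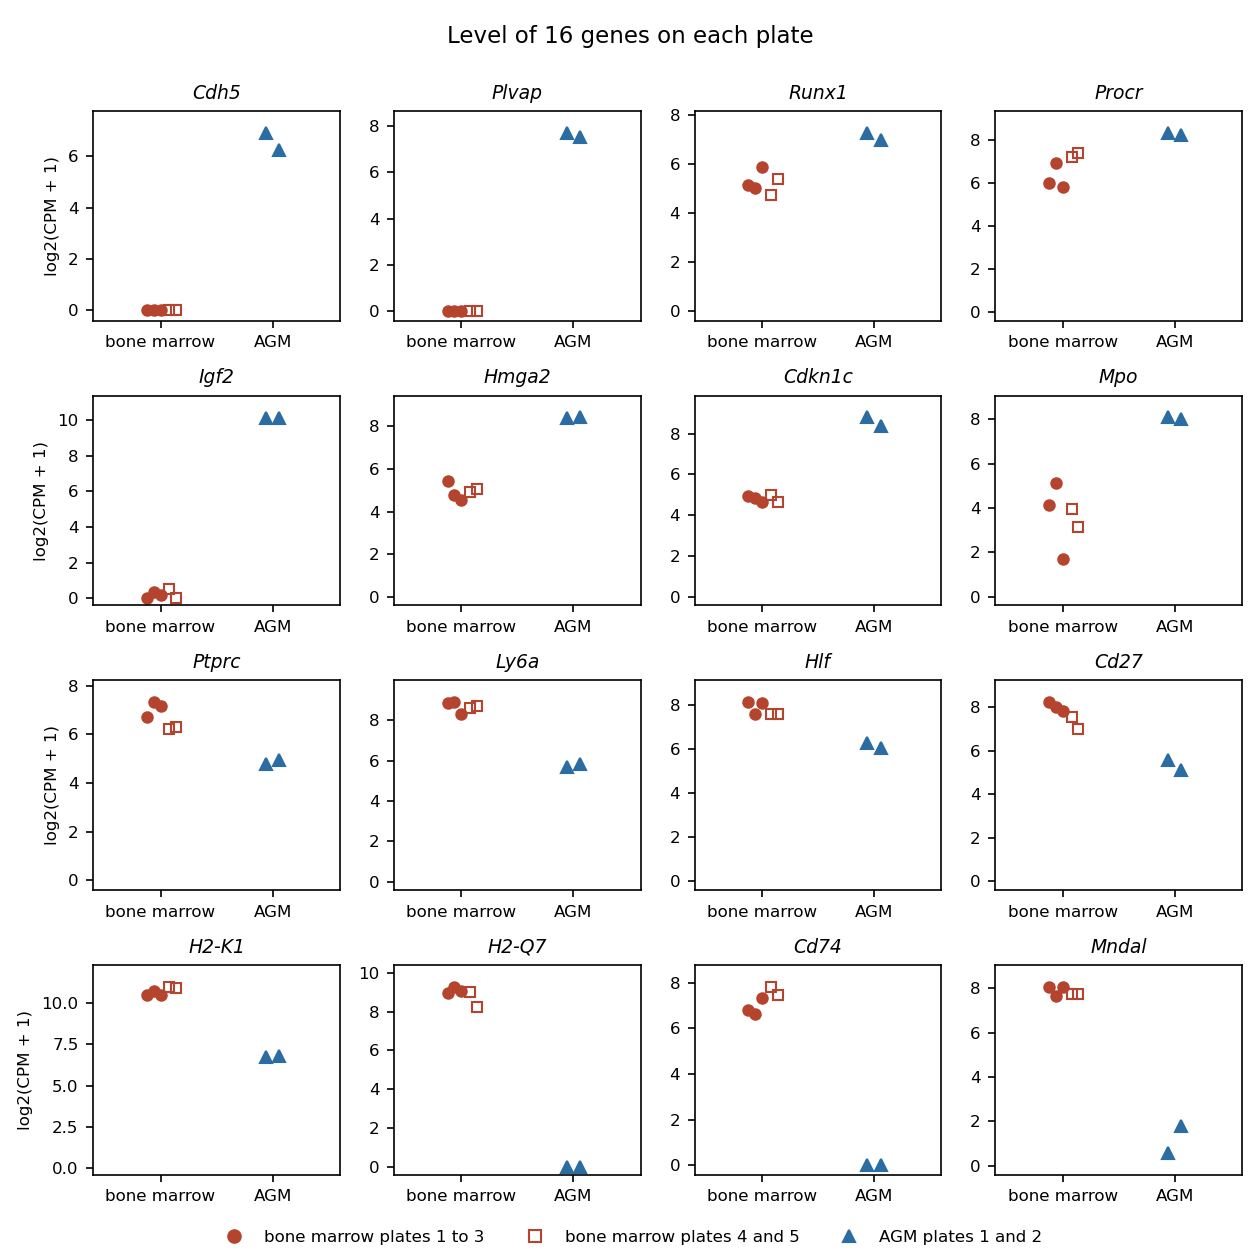
Level of 16 genes on each plate (y axis, log2 of CPM plus 1), with the 5 bone marrow plates left of the 2 AGM plates in each panel; each point is 1 plate. Cdh5 and Plvap are at 0 on every bone marrow plate, and H2-Q7 and Cd74 are at 0 on both AGM plates.

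All called endothelial genes were lower in bone marrow. Of 40 tested genes of endothelial junctions and surface, 0 were higher and 22 (55.0%) were lower in bone marrow, beside 5.29% and 3.63% of all tested genes, with a median log2 difference of -3.49, or -3.06 with genes that had no UMI set at their bound. Their summed level ran from 1062 to 1391 CPM over the bone marrow plates, against 3851 to 4688 CPM over the AGM plates. Ramp2, a co-receptor for adrenomedullin, had 5.34, 9.05, 0, 0.454 and 6.14 CPM on the bone marrow plates, against 478 and 363 CPM on the AGM plates (log2 difference -6.60 ± 0.31 SE, adjusted p = 1.3e-11, edgeR). Cldn5, a tight junction protein, left 1 UMI in bone marrow, on plate 2, and 7165 UMIs in AGM, a ratio of 7806 with an exact 95% counting interval of 1401 to 308362. Kdr, the main receptor for vascular endothelial growth factor, had 0, 9.45, 10.8, 0 and 0.307 CPM on the bone marrow plates, against 56.8 and 43.0 CPM on the AGM plates. Its call (-3.94 ± 1.18, adjusted p = 0.0406) was lost without any of 9 plates, among them bone marrow plate 1 (0.161) and fetal liver plate 4 (0.2). Of the 154 Kdr UMIs in bone marrow, 53.2% lay in 1 cell, and 5 of 423 cells held any. The gap between the marrow codes in Kdr therefore rested on few cells, and whether it is a trait of a code was not tested. The Kdr difference was -8.06 when plates 4 and 5 alone stood for marrow, and -3.11 when plates 1 to 3 alone did. A thinned bone marrow cell held a median of 4 of the list's genes (0 to 10), against 17 (9 to 33) in a thinned AGM cell. The count was 13 of 40 without fetal liver plate 4, and without the mesenchymal-marker cells 22 were.

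Most called arterial and Notch pathway genes were lower. Of 24 tested, 1 was higher and 9 were lower in bone marrow, with a median log2 difference of -3.76, or -2.38 without AGM plate 1, -4.47 without the mesenchymal-marker cells and -4.48 without bone marrow plate 5. Hes1, a transcription factor that Notch signalling turns on, had 6.70, 16.3, 4.16, 18.6 and 4.61 CPM on the bone marrow plates, against 323 and 193 CPM on the AGM plates (-4.86 ± 0.34, adjusted p = 3.51e-09, edgeR). Sox17, a factor of arterial endothelium, left 1 UMI in bone marrow, on plate 2, and 1844 UMIs in AGM, with 82.2 and 35.6 CPM on its plates. The guidance receptor Nrp1, from the endothelial list, and the arterial gap junction gene Gja4 left 1 UMI each in bone marrow, both on plate 5, and 4113 and 3224 UMIs in AGM. The kinase gene Bmx left 1 UMI in bone marrow, on plate 2, and 1956 in AGM, with 98.2 and 16.9 CPM on its plates. All 4 genes with a single marrow UMI were thus seen in marrow on 1 plate each. The gene of the list that was higher was the receptor Notch2, at 29.0 CPM in bone marrow and 1.89 CPM in AGM (adjusted p = 0.00724), which was not called without fetal liver plate 4, when 7 of the list were lower.

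Blood factors did not move as 1 group. Of 24 tested factors of the endothelial-to-blood transition, 6 were higher and 1 was lower in bone marrow, with a median log2 difference of 0.37. Runx1, the factor that starts the transition, was the gene that was lower, with 34.5, 32.0, 57.5, 25.9 and 40.8 CPM on the bone marrow plates, against 155 and 126 CPM on the AGM plates (-1.91 ± 0.34, adjusted p = 0.000802, edgeR). Lmo2, a bridging subunit of blood transcription complexes, was higher, with 758, 720.1, 863, 804 and 825 CPM on the bone marrow plates, against 123 and 115 CPM on the AGM plates (2.75 ± 0.28, adjusted p = 6.92e-07). Nfe2, a factor of platelet-forming cells, averaged 353 CPM in bone marrow and 119 CPM in AGM (1.57 ± 0.27, adjusted p = 0.000499). Meis1, a homeobox factor of stem cells, averaged 154 CPM in bone marrow and 54.0 CPM in AGM (1.51 ± 0.30, adjusted p = 0.00216). Spi1, a factor of myeloid and lymphoid fate, averaged 236 CPM in bone marrow and 368 CPM in AGM and did not pass the test (-0.65 ± 0.25, adjusted p = 0.122), but was called lower without the mesenchymal-marker cells (0.0383) or bone marrow plates 4 and 5 (0.000628). Without fetal liver plate 4, 0 of the 24 were called in either direction, with Runx1 at an adjusted p of 0.111, Lmo2 at 0.0734, Nfe2 at 0.0766 and Meis1 at 0.136.

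Stem cell surface markers moved both ways. Of 25 tested, 7 were higher and 3 were lower in bone marrow, with a median log2 difference of 1.08, or 0.48 without AGM plate 1. Ly6a, which encodes Sca-1, had 466, 475, 315, 381 and 412 CPM on the bone marrow plates, against 49.7 and 56.2 CPM on the AGM plates (3.01 ± 0.30, adjusted p = 5.09e-07, edgeR). Cd27, a receptor of the tumour necrosis factor family, averaged 213 CPM in bone marrow and 41.6 CPM in AGM (2.36 ± 0.35, adjusted p = 9.72e-05). Neither Ly6a nor Cd27 overlapped between the tissues' plates, and both calls held without each plate in turn. Ptprc, which encodes CD45, averaged 106 CPM in bone marrow and 27.5 CPM in AGM (1.95 ± 0.38, adjusted p = 0.00178). Procr, the endothelial protein C receptor EPCR, was lower, with 63.7, 120.4, 55.7, 148 and 166 CPM on the bone marrow plates, against 322 and 299.8 CPM on the AGM plates (-1.39 ± 0.31, adjusted p = 0.00559). Esam and Cd38 were the others that were lower. Procr differed by code within bone marrow, and its difference was -2.01 without bone marrow plates 4 and 5. Slamf1, which encodes CD150, averaged 15.8 CPM in bone marrow and 0.428 CPM in AGM (5.18 ± 0.99, adjusted p = 0.00145), with 0.657 and 0 CPM on the AGM plates, so that no AGM UMI remained without plate 1, and a difference of 4.59 without AGM plate 2. Leaving out fetal liver plate 4 left 3 of the 25 higher and 0 lower, and Ptprc (adjusted p 0.0935), Procr (0.144) and Slamf1 (0.0869) lost their calls; without bone marrow plate 5, 1 was lower.

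Kit, Cd34, Flt3, Cd48, Itga2b and Mecom did not pass the test. Kit, the stem cell factor receptor, averaged 173 CPM in bone marrow and 116 CPM in AGM (0.58 ± 0.30, adjusted p = 0.283, and 0.0354 without bone marrow plates 4 and 5). Cd34 averaged 201 CPM in bone marrow and 329.5 CPM in AGM (-0.71 ± 0.25, adjusted p = 0.089), and was called without AGM plate 1 (-0.84, adjusted p = 0.0415) or bone marrow plates 1 to 3 (-0.93). Mecom, a factor needed for stem cell self-renewal, averaged 127 CPM in bone marrow and 144 CPM in AGM (-0.18 ± 0.28, adjusted p = 0.774). Cd48, a marker of progenitors, had 15.8, 48.5, 25.2, 2.27 and 0 CPM on the bone marrow plates, against 0 and 19.3 CPM on the AGM plates (1.18 ± 1.03, adjusted p = 0.555), all its AGM UMIs on plate 2, without which it was called higher; it was called lower without bone marrow plates 1 to 3 (-2.82) and higher without plates 4 and 5 (2.08). Its plates overlapped, and bone marrow plates 4 and 5 stood below plates 1 to 3. Flt3 averaged 29.2 CPM in bone marrow and 13.7 CPM in AGM (adjusted p = 0.203, 0.0107 without AGM plate 2 and 0.0158 without bone marrow plates 1 to 3), and Itga2b 37.1 CPM in bone marrow and 14.6 CPM in AGM (adjusted p = 0.224).

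Self-renewal and dormancy genes moved both ways. Of 41 tested, 9 were higher and 8 were lower in bone marrow, with a median log2 difference of -0.42. The list held Myl10 and Sdsl, both among the leading rises. Mettl7a1, a methyltransferase-like gene, had 247, 131, 162, 133 and 109 CPM on the bone marrow plates, against 5.42 and 8.61 CPM on the AGM plates (4.58 ± 0.39, adjusted p = 6.81e-08, edgeR), a difference of 5.50 without the mesenchymal-marker cells. Txnip, an inhibitor of thioredoxin and glucose uptake, averaged 469 CPM in bone marrow and 82.5 CPM in AGM (2.51 ± 0.30, adjusted p = 9.15e-06). Cdkn1c, which encodes the cell cycle inhibitor p57, went the other way, with 29.9, 27.7, 24.2, 31.3 and 23.9 CPM on the bone marrow plates, against 442 and 333 CPM on the AGM plates (-3.87 ± 0.27, adjusted p = 4.15e-09). Hlf, a stem cell transcription factor, averaged 222 CPM in bone marrow and 71.7 CPM in AGM (1.63 ± 0.29, adjusted p = 0.000853). In all, 3 of the 41 had no UMI in AGM. Hlf was not called without fetal liver plate 4 (0.0857), when 6 of the list were higher and 2 lower, and without bone marrow plate 4, 5 were lower.

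All called genes of the fetal stem cell programme were lower in bone marrow. Of 19 tested, 0 were higher and 13 were lower, with a median log2 difference of -3.45, or -3.41 with unseen genes at their bound, and the lower count stayed between 12 and 15 over all alternatives run. Their summed level ran from 293.9 to 413 CPM over the bone marrow plates, against 3840 to 3951 CPM over the AGM plates. Igf2bp1, an RNA-binding protein of fetal cells, had 0, 0.135, 0, 0.454 and 0 CPM on the bone marrow plates, against 339 and 307 CPM on the AGM plates. Its 2 bone marrow UMIs against 9151 in AGM gave a ratio of 4985 with an exact 95% counting interval of 1379.5 to 41168. Hmga2, which encodes an architectural chromatin factor, was present in marrow at a lower level, with 42.4, 26.7, 22.6, 29.5 and 32.2 CPM on the bone marrow plates, against 340.0 and 343 CPM on the AGM plates (-3.41 ± 0.25, adjusted p = 8.47e-09, edgeR). Lin28b, which blocks let-7 microRNAs, had 0, 7.29, 0, 0 and 0 CPM on the bone marrow plates, against 9.53 and 25.9 CPM on the AGM plates. Its difference did not pass the test (-3.63 ± 1.19, adjusted p = 0.0626), and all its bone marrow UMIs lay on plate 2, without which it was called lower (0.00111); it was also called without AGM plate 1 (-4.36, adjusted p = 0.0167). A thinned bone marrow cell held a median of 2 of the list's genes (0 to 6), against 11 (6 to 15) in a thinned AGM cell.

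Imprinted genes, which are read from 1 parental copy, were called mostly lower. Of 30 tested, 1 was higher and 10 were lower in bone marrow, with a median log2 difference of -1.44. Igf2, a fetal growth factor, had 0, 0.270, 0.130, 0.454 and 0 CPM on the bone marrow plates, against 1133 and 1095 CPM on the AGM plates (-12.97 ± 0.50, adjusted p = 6.2e-13, edgeR). H19, the non-coding RNA beside it, had 0.194, 0.405, 0, 0 and 0 CPM on the bone marrow plates, against 726 and 742 CPM on the AGM plates (-12.08 ± 0.47, adjusted p = 6.2e-13), all its marrow UMIs on plates 1 and 2, with a difference of -12.92 without plate 2. Both RNAs were present in all 141 thinned AGM cells, and in 0.255% (Igf2) and 0.510% (H19) of thinned bone marrow cells. Plagl1, an imprinted zinc finger factor, was at 0 on every bone marrow plate, against 49.3 and 30.7 CPM on the AGM plates, at least 434-fold lower in bone marrow, at least 294-fold without bone marrow plate 1 and at least 78.0-fold without plates 1 to 3. The gene that was higher, Phlda2, averaged 56.8 CPM in bone marrow and 6.35 CPM in AGM (adjusted p = 0.0125) and lost its call when any 1 of these was left out: AGM plate 1, bone marrow plate 5, fetal liver plate 1 or fetal liver plate 4. The lower imprinted genes numbered 4 when fetal liver plate 4 was left out and 6 when bone marrow plate 5 was.

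The insulin-like growth factor axis includes Igf2, its receptors and the binding proteins that hold the factors back. Of 12 tested, 0 were higher and 7 were lower in bone marrow, with a median log2 difference of -2.69, or -1.76 without AGM plate 1. Igfbp4, a binding protein, averaged 224 CPM in bone marrow and 512 CPM in AGM (-1.20 ± 0.28, adjusted p = 0.0074, edgeR). Igf1 had 1.84, 1.08, 2.47, 15.0 and 8.29 CPM on the bone marrow plates, against 41.3 and 29.3 CPM on the AGM plates (-2.65 ± 0.59, adjusted p = 0.00548), a difference of -1.73 with bone marrow plates 1 to 3 left out and -4.35 with plates 4 and 5 left out. Igfbp3 was at 0 on every bone marrow plate and had 39.3 and 0 CPM on the AGM plates, so its call rested on AGM plate 1. Igf1 was not called without bone marrow plate 5 (adjusted p 0.0595) or fetal liver plate 4 (0.11), and Igfbp4 was not called without fetal liver plate 4 (0.311). The lower genes numbered 4 when AGM plate 1 was left out, 2 when fetal liver plate 4 was, and 4 when bone marrow plate 5 was.

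**Figure D3:**
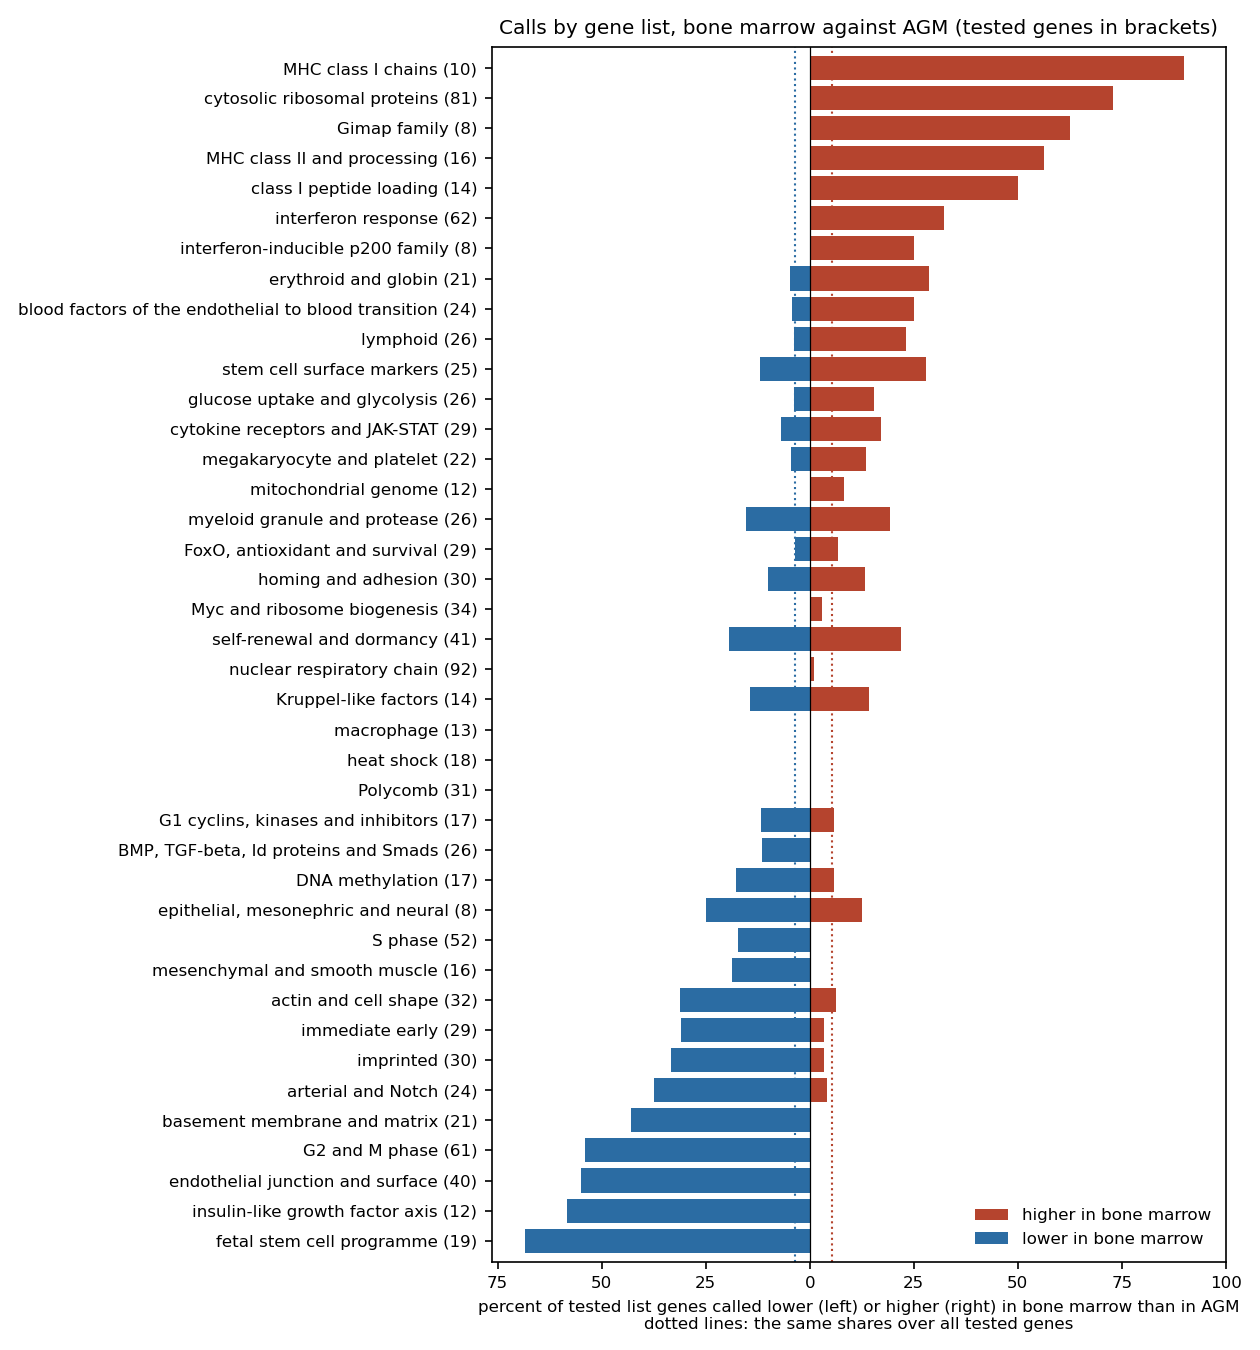
Share of tested genes called higher (bars to the right) and lower (bars to the left) in bone marrow than in AGM, in percent of the tested genes of each of 40 gene lists; dotted lines mark the shares over all tested genes, 5.29% and 3.63%. MHC class I chains and cytosolic ribosomal proteins reach furthest right, and fetal programme, growth factor axis and endothelial lists furthest left.

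MHC class I chains were the list with the highest share of members called higher in bone marrow. Of 10 tested MHC class I chains, 9 were higher and 0 lower, with a median log2 difference of 3.72, and 6 to 9 were called over all alternatives, the 6 without fetal liver plate 4. H2-K1, a classical class I chain, had 1439, 1677, 1414, 2032 and 1925 CPM on the bone marrow plates, against 106 and 109.5 CPM on the AGM plates (4.04 ± 0.33, adjusted p = 3.64e-08, edgeR). H2-D1, the other classical chain of this annotation, averaged 1293 CPM in bone marrow and 125 CPM in AGM (3.37 ± 0.32, adjusted p = 3.27e-07). B2m, the light chain that all class I molecules share, had 3213, 3679, 3064, 6171 and 4994 CPM on the bone marrow plates, against 844 and 914 CPM on the AGM plates (2.36 ± 0.33, adjusted p = 4.4e-05). H2-T23, the non-classical chain Qa-1 that natural killer receptors read, averaged 239.9 CPM in bone marrow and 7.38 CPM in AGM (5.02 ± 0.36, adjusted p = 4.9e-09). H2-Q7, the Qa-2 chain, had 492, 625, 539, 512 and 300.0 CPM on the bone marrow plates, against 0 on both AGM plates, at least 4878-fold higher and at least 1661-fold without AGM plate 1 (adjusted p = 1.7e-10). After thinning, H2-K1 was present in 100% of 392 bone marrow and 66.7% of 141 AGM cells, and H2-Q7 in 86.5% of bone marrow and 0% of AGM cells. H2-Q7 and H2-Q6 share 17% of the 50-base windows of the H2-Q7 transcripts, so reads may be split between them.

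The 200 bases before the listed start of 5 antigen presentation genes are shown for motifs found there, which differ between the genes (RefSeq, GRCm38.p6). Capitals mark the kappa B letters GGGATTCCC, the interferon-stimulated response element (GAAA, any 2 letters, GAAA) and the Y box CTGATTGG, which holds the CCAAT box letters ATTGG; both strands were searched, so a Y box on the reverse strand reads as its reverse complement.
H2-Q7, chr17:35438955-35439154, plus strand: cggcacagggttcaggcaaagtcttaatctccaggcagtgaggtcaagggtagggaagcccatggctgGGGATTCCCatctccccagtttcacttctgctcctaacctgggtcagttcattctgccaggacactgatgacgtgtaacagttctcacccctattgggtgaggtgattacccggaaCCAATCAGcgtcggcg
H2-Q6, chr17:35424650-35424849, plus strand: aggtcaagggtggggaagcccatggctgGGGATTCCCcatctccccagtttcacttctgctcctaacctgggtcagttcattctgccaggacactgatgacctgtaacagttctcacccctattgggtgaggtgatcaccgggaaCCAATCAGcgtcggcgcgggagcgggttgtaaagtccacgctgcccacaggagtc
H2-D1, chr17:35262894-35263093, plus strand: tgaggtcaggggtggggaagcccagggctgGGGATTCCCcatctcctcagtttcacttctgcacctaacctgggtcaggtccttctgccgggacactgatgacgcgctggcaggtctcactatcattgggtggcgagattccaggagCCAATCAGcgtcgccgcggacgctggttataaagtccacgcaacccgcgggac
B2m, chr2:122147487-122147686, plus strand: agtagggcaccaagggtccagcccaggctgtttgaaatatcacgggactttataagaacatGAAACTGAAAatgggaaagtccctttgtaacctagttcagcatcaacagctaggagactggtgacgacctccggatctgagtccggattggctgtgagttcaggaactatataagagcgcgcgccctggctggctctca
H2-Aa, chr17:34287824-34288023, minus strand: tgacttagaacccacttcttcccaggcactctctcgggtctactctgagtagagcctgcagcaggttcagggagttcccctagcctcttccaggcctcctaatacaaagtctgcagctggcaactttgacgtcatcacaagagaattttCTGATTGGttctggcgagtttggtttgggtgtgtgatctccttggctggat

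The kappa B letters began 132, 172 and 170 bases before the start in H2-Q7, H2-Q6 and H2-D1, and the Y box 16, 55 and 53 bases before it. B2m held a response element at 139 bases and neither other motif, and H2-Aa held a Y box at 51 bases alone. Aligned over 161 bases, the H2-Q7 and H2-Q6 windows were 85.1% identical, so they are not independent examples. Of the 9 tested class I chains with a listed promoter, 4 held the kappa B letters, 3 the response element and 4 the Y box, against 0.255%, 2.65% and 4.11% of 27025 listed promoters. Of 12 class II pathway genes with a promoter, 4 held the Y box. These are matches of letters, and no binding was measured.

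All called genes that cut and load class I peptides were higher too. Of 14 tested, 7 were higher and 0 lower in bone marrow, with a median log2 difference of 1.04. Psmb9 and Psmb8 encode subunits of the immunoproteasome, the form of the proteasome that interferon induces. Psmb9 had 309.6, 291, 274, 339 and 277 CPM on the bone marrow plates, against 14.1 and 25.3 CPM on the AGM plates (4.08 ± 0.32, adjusted p = 1.9e-08, edgeR), a difference of 5.33 without the mesenchymal-marker cells. Psmb8 averaged 658 CPM in bone marrow and 60.7 CPM in AGM (3.44 ± 0.29, adjusted p = 5.89e-08). Tap1 and Tap2 form the pump that carries peptides to class I chains. Tap1 averaged 115 CPM in bone marrow and 10.2 CPM in AGM (3.50 ± 0.42, adjusted p = 7.44e-06), a difference of 4.25 without AGM plate 1 and 2.61 without the mesenchymal-marker cells. Tap2 averaged 69.3 CPM in bone marrow and 2.78 CPM in AGM (4.64 ± 0.59, adjusted p = 1.74e-05), a difference of 3.57 without AGM plate 1, 5.93 without AGM plate 2 and 3.93 without the mesenchymal-marker cells. The count was 4 of 14 without fetal liver plate 4.

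All called MHC class II genes were higher in bone marrow. Of 16 tested chains and processing genes, 9 were higher and 0 lower in bone marrow, with a median log2 difference of 6.38, or 5.97 with unseen genes at their bound and 7.59 without the mesenchymal-marker cells, and 7 to 10 were called over all alternatives. Their summed level ran from 818 to 1163 CPM over the bone marrow plates, against 41.2 to 61 CPM over the AGM plates. Cd74, the invariant chain that guides class II molecules, had 111, 97.7, 158, 226 and 177 CPM on the bone marrow plates, against 0 on both AGM plates, at least 1269.7-fold higher (adjusted p = 4.39e-10, edgeR) and at least 432-fold without AGM plate 1. H2-Aa, a class II alpha chain, had 79.0, 147, 122, 133 and 132 CPM on the bone marrow plates and left 1 UMI in AGM. H2-Ab1, its beta chain partner, had 73.0, 171, 141, 136 and 107 CPM on the bone marrow plates and left 2 UMIs in AGM. H2-DMa, which helps load class II peptides, averaged 282 CPM in bone marrow and 3.42 CPM in AGM (6.36 ± 0.40, adjusted p = 7.55e-10), a difference of 9.14 without the mesenchymal-marker cells. After thinning, 4.59% of bone marrow cells and 63.8% of AGM cells held no gene of the list, and Cd74 was present in 38.5% of bone marrow cells and 0% of AGM cells. With all UMIs, both H2-Aa and H2-Ab1 were found in 138 of 423 bone marrow cells, and 113 held neither. Marrow cells with a UMI of H2-Aa held a median of 2 of them, as did those with a UMI of H2-Ab1. The part of depth in how often each gene was found was not tested.

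Part of these genes lie together on chromosome 17, while B2m, Cd74 and Ctss lie on chromosomes 2, 18 and 3. Between H2-K1 and H2-T23 (chr17:33996017-36032855), 101 genes were tested, of which 21 were higher and 2 lower in bone marrow. Of 21 antigen presentation genes in the interval, 18 were higher. Of the 80 other genes there, 3 were higher and 2 were lower, beside 5.29% and 3.63% of all tested genes.

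**Figure D4:**
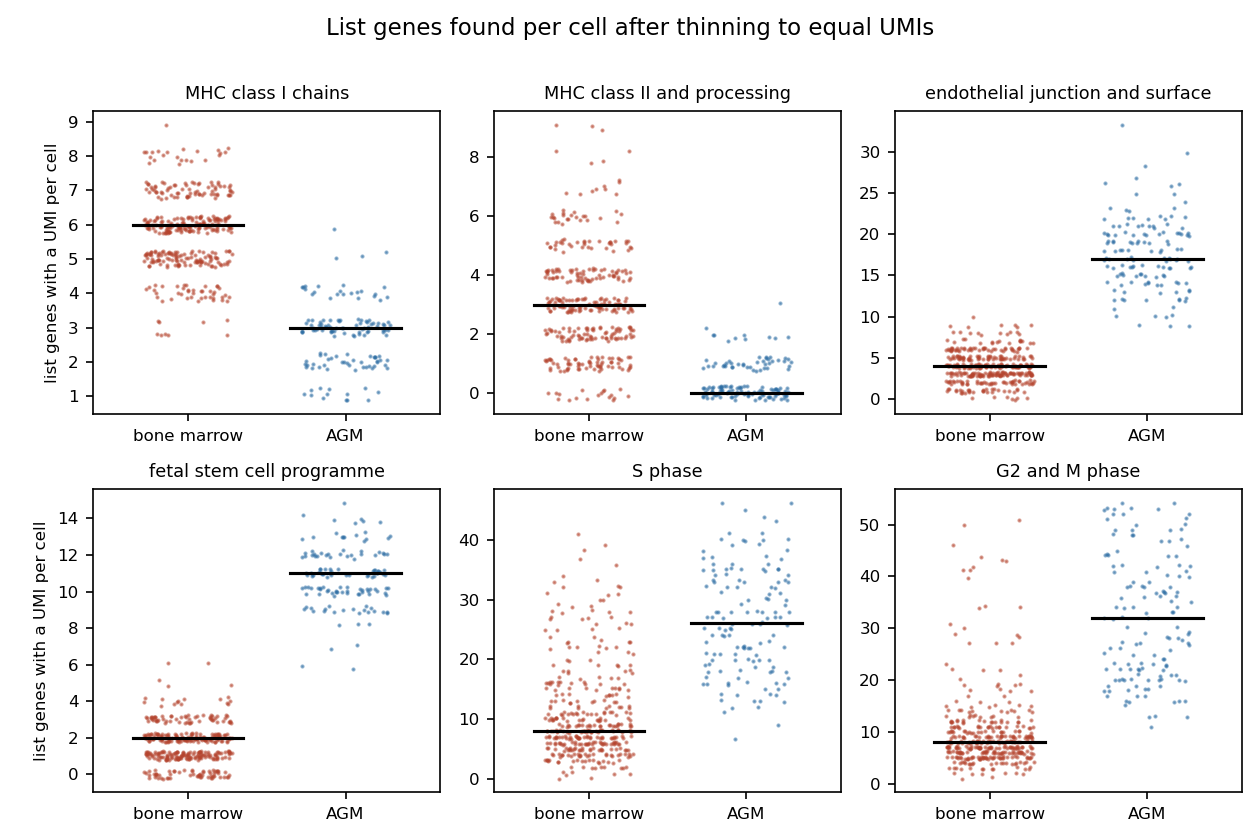
Number of list genes with a UMI per cell after thinning to 20000 UMIs (y axis), for 392 bone marrow cells (left in each panel) and 141 AGM cells (right); each point is a cell and the black line is the median. Bone marrow medians are 4 endothelial, 2 fetal programme, 6 class I, 3 class II, 8 S phase and 8 G2 and M genes, against 17, 11, 3, 0, 26 and 32 in AGM. Over all genes the thinned medians are 1915 in bone marrow and 3370 in AGM, and lower list medians in bone marrow have to be read beside that gap. For the 31 Polycomb genes, of which 0 were called, the medians are 4 and 8.

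All called interferon response genes outside the MHC lists were higher in bone marrow. Of 62 tested, 20 were higher and 0 lower, with a median log2 difference of 1.27. Ifi47, an interferon-induced GTPase, had 151, 129, 127, 159.7 and 101 CPM on the bone marrow plates, against 9.91 and 8.92 CPM on the AGM plates (3.80 ± 0.35, adjusted p = 2.4e-07, edgeR). Ifi27 averaged 258 CPM in bone marrow and 21.8 CPM in AGM (3.57 ± 0.34, adjusted p = 3e-07). Sp100, a nuclear body protein, averaged 77.9 CPM in bone marrow and had 4.49 and 0 CPM on the AGM plates (4.73 ± 0.56, adjusted p = 6.82e-06), a difference of 4.14 without AGM plate 2. Tgtp2, a T cell GTPase, averaged 65.3 CPM in bone marrow and left 5 UMIs in AGM (8.46 ± 0.75, adjusted p = 1.04e-07), all of them on plate 2, with a difference of 6.97 without AGM plate 1. Without the mesenchymal-marker cells the differences were 2.83 for Ifi47, 2.67 for Ifi27 and 3.15 for Sp100, each still called. Leaving out fetal liver plate 4 left 9 of the 62 higher.

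The p200 family, interferon-inducible DNA-binding proteins, held 8 tested members, of which 2 were higher and 0 lower; 5 of the 8 had no UMI in AGM and 2 had none in bone marrow. The count of 2 was the same under every alternative run. The 2 genes, Mndal (chr1:173849126-173942491) and Ifi203 (chr1:173920407-173942672), overlap on the minus strand. Reads may be mixed between them, so they may not be independent calls. Mndal had 267, 196, 265, 211 and 209 CPM on the bone marrow plates, against 0.493 and 2.49 CPM on the AGM plates (7.61 ± 0.42, adjusted p = 9.97e-11, edgeR), a difference of 6.54 without AGM plate 1 and 8.87 without AGM plate 2. Ifi203 had 356, 349, 365, 232 and 257 CPM on the bone marrow plates, against 13.9 and 0 CPM on the AGM plates (5.08 ± 0.36, adjusted p = 4.58e-09), a difference of 4.48 without AGM plate 2, while no AGM UMI remained without plate 1. After thinning, Mndal was present in 48.7% of bone marrow and 2.13% of AGM cells. The 200 bases before the starts of Mndal and Tgtp2 are shown for the response element that both hold, in capitals (RefSeq, GRCm38.p6).
Mndal, chr1:173880188-173880387, minus strand: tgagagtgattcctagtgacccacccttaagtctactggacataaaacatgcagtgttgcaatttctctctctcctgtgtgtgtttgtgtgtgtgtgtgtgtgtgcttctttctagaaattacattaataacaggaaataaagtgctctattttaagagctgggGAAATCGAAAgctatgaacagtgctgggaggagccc
Tgtp2, chr11:49064213-49064412, minus strand: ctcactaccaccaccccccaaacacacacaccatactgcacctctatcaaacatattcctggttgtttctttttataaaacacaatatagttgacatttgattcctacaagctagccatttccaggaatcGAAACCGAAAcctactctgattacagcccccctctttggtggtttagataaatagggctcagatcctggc

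The element began 36 bases before the shown start of Mndal and 70 bases before that of Tgtp2. Mndal has 2 listed starts, and the shown one was picked for holding the element. It was present in 20 of 49 interferon list genes with a promoter (40.8%) and in 6 of 7 p200 genes, against 2.65% of all 27025 listed promoters.

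All called genes of mitosis were lower in bone marrow. Of 61 tested genes of G2 and M phase, 0 were higher and 33 were lower, with a median log2 difference of -1.50, and their summed level ran from 3395 to 6491 CPM over the bone marrow plates, against 10653 to 10704 CPM over the AGM plates. Ccnb1, the cyclin that drives entry into mitosis, had 17.9, 2.43, 0, 29.0 and 23.9 CPM on the bone marrow plates, against 172 and 189 CPM on the AGM plates (-3.42 ± 0.43, adjusted p = 1.49e-05, edgeR). Ccnb1 differed by code within bone marrow: with plates 1 to 3 left out the difference was -2.74, and with plates 4 and 5 left out it was -4.48. Cenpf, a kinetochore protein, averaged 64.5 CPM in bone marrow and 308 CPM in AGM (-2.26 ± 0.26, adjusted p = 4.74e-06). Cenpa, the histone of centromeres, had 40.3, 55.8, 53.2, 67.6 and 123 CPM on the bone marrow plates, against 321 and 335 CPM on the AGM plates (-2.11 ± 0.31, adjusted p = 9.33e-05), a difference of -2.74 without bone marrow plates 4 and 5. Cenpe, a kinetochore motor, averaged 19.4 CPM in bone marrow and 139 CPM in AGM (-2.86 ± 0.40, adjusted p = 5.19e-05), a difference of -3.90 without bone marrow plate 5. A thinned bone marrow cell held a median of 8 of the list's genes (1 to 51), against 32 (11 to 54) in AGM, so some marrow cells reached the numbers usual in AGM. Over all genes the thinned medians were 1915 in bone marrow and 3370 in AGM. Without the mesenchymal-marker cells 21 of the 61 were lower, and without fetal liver plate 4, 9 were.

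The promoters of Ccnb1 and Cenpa are shown for the pair of CCAAT boxes that each holds (letters ATTGG, or the reverse complement on the reverse strand, in capitals; RefSeq, GRCm38.p6).
Ccnb1, chr13:100786487-100786686, minus strand: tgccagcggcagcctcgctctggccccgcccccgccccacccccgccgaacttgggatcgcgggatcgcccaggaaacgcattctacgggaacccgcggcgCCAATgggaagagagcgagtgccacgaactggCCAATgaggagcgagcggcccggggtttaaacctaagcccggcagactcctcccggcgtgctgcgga
Cenpa, chr5:30666686-30666885, plus strand: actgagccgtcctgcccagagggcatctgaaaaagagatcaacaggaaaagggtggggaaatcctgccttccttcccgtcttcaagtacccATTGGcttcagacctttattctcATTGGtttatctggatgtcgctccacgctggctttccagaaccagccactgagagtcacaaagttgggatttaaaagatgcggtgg

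The boxes began 99 and 67 bases before the start of Ccnb1 and 109 and 86 bases before that of Cenpa. Of 50 G2 and M genes with a promoter, 38 (76%) held the letters, against 32.7% of all listed promoters.

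Of 52 tested S phase genes, 0 were higher and 9 were lower in bone marrow, with a median log2 difference of -0.42. Nasp, a histone chaperone, averaged 95.3 CPM in bone marrow and 275 CPM in AGM (-1.53 ± 0.27, adjusted p = 0.000592, edgeR). Tyms, which makes thymidylate, averaged 105 CPM in bone marrow and 253 CPM in AGM (-1.26 ± 0.25, adjusted p = 0.00229). Rrm2, a subunit of ribonucleotide reductase, had 24.5, 41.0, 6.90, 63.5 and 29.5 CPM on the bone marrow plates, against 120.2 and 94.4 CPM on the AGM plates (-1.72 ± 0.35, adjusted p = 0.0029). No S phase gene was lower (0 of 52) without fetal liver plate 4, with Nasp at an adjusted p of 0.0574, Tyms at 0.107 and Rrm2 at 0.104, and Rrm2 was also lost without bone marrow plate 5 (0.0899). The count was 5 without fetal liver plate 3 and 5 without fetal liver plate 5. Mki67, a marker of dividing cells, had 25.3, 33.6, 13.0, 58.1 and 49.4 CPM on the bone marrow plates, against 48.6 and 47.1 CPM on the AGM plates, and did not pass the test (-0.31 ± 0.46, adjusted p = 0.759). It was present in 7.91% of thinned bone marrow cells and 36.2% of thinned AGM cells.

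Of 17 tested G1 cyclins, kinases and inhibitors, 1 (5.88%) was higher and 2 (11.8%) were lower in bone marrow. Over all tested genes the shares were 5.29% and 3.63%. In this list 3 were higher without AGM plate 1. Cdkn2c, which encodes the inhibitor p18, had 14.6, 30.4, 34.1, 12.2 and 26.1 CPM on the bone marrow plates, against 0 on both AGM plates, at least 229-fold higher (adjusted p = 0.000403, edgeR) and at least 78.0-fold without AGM plate 1. The lower genes were Cdkn1c and Cdkn1a. Cdkn1a, which encodes p21, had 0, 5.67, 5.33, 7.26 and 11.1 CPM on the bone marrow plates, against 57.7 and 62.9 CPM on the AGM plates (-3.23 ± 0.68, adjusted p = 0.0034), a difference of -2.61 with bone marrow plates 1 to 3 left out and -4.18 with plates 4 and 5 left out, and was not called without fetal liver plate 4 (0.0976). The kinase gene Cdk6 averaged 85.3 CPM in bone marrow and 39.7 CPM in AGM and was not called (adjusted p = 0.081), but was called without AGM plate 1 (0.0192) or the mesenchymal-marker cells (0.00648). The cyclin gene Ccnd2 averaged 980.5 CPM in bone marrow and 819 CPM in AGM (0.59), Ccnd1 47.1 CPM in bone marrow and 62.7 CPM in AGM (0.469), and the inhibitor gene Cdkn1b 22.8 CPM in bone marrow and 10.4 CPM in AGM (0.399).

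Among chromatin regulators, the called genes lay in the DNA methylation list. Of 17 DNA methylation genes, 1 (5.88%) was higher and 3 (17.6%) were lower in bone marrow. The shares over all tested genes were 5.29% and 3.63%. Dnmt3b, a de novo methyltransferase, had 47.5, 38.3, 27.1, 34.0 and 35.0 CPM on the bone marrow plates, against 213 and 200.1 CPM on the AGM plates (-2.48 ± 0.28, adjusted p = 4.64e-06, edgeR). Its relative Dnmt3a averaged 41.3 CPM in bone marrow and 122 CPM in AGM (-1.55 ± 0.30, adjusted p = 0.00142). Dnmt3a was not called without fetal liver plate 4 (0.0852), which left 1 gene lower and 0 higher. Uhrf1, which brings methylation to newly made DNA, averaged 29.7 CPM in bone marrow and 78.6 CPM in AGM (-1.39 ± 0.42, adjusted p = 0.0426), a call that was lost without any of 9 plates. The higher gene was the deaminase Apobec1, with 27.8 CPM in bone marrow and 2.96 CPM in AGM (adjusted p = 0.00802), not called without AGM plate 1 (0.0526), bone marrow plate 5 (0.0663) or fetal liver plate 4 (0.0707). Of 31 Polycomb genes, 0 were called in either direction by edgeR, 4 had an unadjusted p under 0.05, DESeq2 called 1 higher and limma on plates called 1 higher and 2 lower, with a median log2 difference of 0.14. The methyltransferase Ezh1 averaged 21.9 CPM in bone marrow and 8.63 CPM in AGM (1.34 ± 0.72, adjusted p = 0.308), and Ezh2 104 CPM in bone marrow and 156 CPM in AGM (-0.58 ± 0.29, adjusted p = 0.273, and called without bone marrow plates 1 to 3 at 0.0129).

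Immediate early genes, which cells switch on within minutes of a stimulus or of handling, were called mostly lower in bone marrow. Of 29 tested, 1 was higher and 9 were lower, with a median log2 difference of -1.64. Jun had 1.65, 4.05, 8.07, 12.7 and 30.7 CPM on the bone marrow plates, against 231 and 147 CPM on the AGM plates (-3.91 ± 0.61, adjusted p = 0.000184, edgeR). The difference in Jun was -4.73 without bone marrow plate 5, -3.07 without plates 1 to 3 and -5.55 without plates 4 and 5, and the call was lost without fetal liver plate 4 (0.142). Fos left 2 UMIs in bone marrow and 852 in AGM, with 17.8 and 54.6 CPM on the AGM plates. The higher gene was Myc, a growth factor-induced transcription factor, with 172, 205, 216, 204 and 142 CPM on the bone marrow plates, against 41.8 and 54.0 CPM on the AGM plates (2.0 ± 0.31, adjusted p = 0.000156). Just 1 gene was lower without fetal liver plate 4, and 5 were without bone marrow plate 4. Of 18 heat shock genes 0 were called by edgeR or DESeq2, 2 had an unadjusted p under 0.05 and limma on plates called 2 higher and 2 lower, with Hsp90ab1 at 2737 CPM in bone marrow and 1927 CPM in AGM (adjusted p = 0.294, and called without bone marrow plates 1 to 3 at 4.17e-10). Of 34 Myc and ribosome biogenesis genes, Myc was the 1 called.

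Most called basement membrane and cell shape genes were lower. Of 21 tested matrix genes, 0 were higher and 9 were lower in bone marrow, with a median log2 difference of -5.72, or -5.39 with unseen genes at their bound, -3.32 without AGM plate 1 and -6.39 without bone marrow plate 5. Sparc, a collagen-binding matrix protein, had 0, 0, 7.29, 9.07 and 0 CPM on the bone marrow plates, against 395 and 312 CPM on the AGM plates (-7.04 ± 0.38, adjusted p = 9.01e-11, edgeR), a difference of -8.21 without bone marrow plate 3, -7.80 without plate 4 and -6.39 without plate 5. Fn1, fibronectin, averaged 3.74 CPM in bone marrow and 166 CPM in AGM (-5.72 ± 0.78, adjusted p = 3.89e-05), a difference of -7.12 without bone marrow plate 5, -4.59 without plates 1 to 3 and -8.12 without plates 4 and 5. Col18a1, a collagen of basement membranes, left 4 UMIs in bone marrow and 4087 in AGM. The matrix count was 5 without fetal liver plate 4 and 6 without bone marrow plate 5. Of 32 actin and cell shape genes, 2 (S100a6 and S100a10) were higher and 10 were lower; Tpm4, a tropomyosin, averaged 10.1 CPM in bone marrow and 188 CPM in AGM (-4.26 ± 0.35, adjusted p = 3.53e-08), and Cnn3, a calponin, 3.07 CPM in bone marrow and 188 CPM in AGM (-5.71 ± 0.47, adjusted p = 3.64e-08), a difference of -7.64 without bone marrow plates 1 to 3. The cell shape counts were 0 higher and 5 lower without fetal liver plate 4. Of 26 genes of BMP and TGF-beta signalling, 0 were higher and 3 were lower: the receptor gene Acvrl1 and 2 inhibitors of differentiation. Id3 left 5 UMIs in bone marrow and 3816 in AGM, and Id1 averaged 3.97 CPM in bone marrow and 43.9 CPM in AGM (-3.59 ± 0.45, adjusted p = 1.44e-05), a difference of -4.64 without bone marrow plate 5, -4.20 without plate 1, -2.97 without plates 1 to 3 and -4.24 without plates 4 and 5.

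Among Kruppel-like factors, 2 of 14 were higher and 2 lower in bone marrow. Klf10 averaged 70.7 CPM in bone marrow and 18.4 CPM in AGM (adjusted p = 0.00498, edgeR) and Klf9 51.1 CPM in bone marrow and 12.7 CPM in AGM (0.0395). Klf2, a factor of endothelium under flow, averaged 1.04 CPM in bone marrow and 34.3 CPM in AGM (0.00744), and Klf6 46.9 CPM in bone marrow and 103 CPM in AGM (0.0393). None of the 4 was called without fetal liver plate 4, Klf2 was not called without AGM plate 1 (0.0929) or bone marrow plate 5 (0.0591), and Klf6 and Klf9 were lost without most single plates.

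Lineage genes moved both ways. Of 21 erythroid and globin genes, 6 were higher and 1 was lower in bone marrow, with a median log2 difference of 1.27, or 2.76 without the mesenchymal-marker cells. Hbb-y, an embryonic globin, left 1 UMI in bone marrow, on plate 3, and 1750 in AGM, with 91.2 and 8.71 CPM on its plates; it was not called without AGM plate 1. Hba-a1, an adult globin, had 50.2, 16.1, 12, 30.4 and 0 CPM on the bone marrow plates, against 0 on both AGM plates, at least 243-fold higher (adjusted p = 3.39e-05, edgeR) at least 82.8-fold without AGM plate 1 and at least 114-fold without bone marrow plates 1 to 3. It shares 67.5% of its 50-base windows with Hba-a2, so reads may be split between them. With all UMIs, Hba-a1 was present in 39 of 423 bone marrow cells. Another adult globin gene, Hbb-bt, was not called (1.22, adjusted p = 0.591, edgeR), but was called in 6 of 30 alternatives. After thinning, Hbb-bt was present in 42.9% of bone marrow cells and 41.1% of AGM cells. Car2, a carbonic anhydrase, averaged 1213 CPM in bone marrow and 203 CPM in AGM (2.58 ± 0.31, adjusted p = 9.2e-06). Leaving out fetal liver plate 4 left 2 erythroid genes higher. Of 22 megakaryocyte and platelet genes, 3, among them Gp5 and Nfe2, were higher and 1 was lower. Gp5, a platelet glycoprotein, left 646 UMIs in bone marrow and 1 in AGM, and Vwf, von Willebrand factor of endothelium and platelets, averaged 7.17 CPM in bone marrow and 119.9 CPM in AGM (-4.01 ± 0.49, adjusted p = 9.19e-06), a difference of -4.87 without bone marrow plates 1 to 3. Without the mesenchymal-marker cells, 6 were higher and 3 lower.

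The myeloid granule genes Mpo and Prtn3 went in opposite directions. Mpo, myeloperoxidase, had 16.7, 34.0, 2.21, 14.5 and 7.68 CPM on the bone marrow plates, against 272 and 259 CPM on the AGM plates (-4.21 ± 0.35, adjusted p = 3.64e-08, edgeR). Prtn3, proteinase 3, had 896, 733, 877, 883 and 726 CPM on the bone marrow plates, against 164 and 187 CPM on the AGM plates (2.27 ± 0.27, adjusted p = 6.5e-06). After thinning, Mpo was present in 6.63% of bone marrow and 89.4% of AGM cells, and Prtn3 in 93.4% of bone marrow and 73.8% of AGM cells. Of 26 myeloid genes, 5 (Prtn3, Gstm1, Lyz2, S100a8 and Nkg7) were higher and 4 (Mpo, Cpa3, Fcgr3 and Igsf6) lower, with a median log2 difference of -0.13; without fetal liver plate 4, 1 was higher and 1 lower, and 6 other single plates also moved a count by over 1.5 times.

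Of 26 lymphoid genes, 6 were higher and 1 was lower in bone marrow. Ltb, lymphotoxin beta, averaged 249.5 CPM in bone marrow and 51.7 CPM in AGM (2.27 ± 0.30, adjusted p = 2.52e-05, edgeR). Lsp1, a leukocyte actin-binding protein, averaged 319 CPM in bone marrow and 79.6 CPM in AGM (2.0 ± 0.29, adjusted p = 8.54e-05). Lat, an adaptor of the T cell receptor, had 85.8, 65.1, 20.4, 138 and 173 CPM on the bone marrow plates, against 15.9 and 11.4 CPM on the AGM plates (2.95 ± 0.51, adjusted p = 0.000555), a difference of 2.06 without bone marrow plates 4 and 5 and 3.80 without the mesenchymal-marker cells. The lower gene was Grap, with 2.43 CPM on bone marrow plate 1 and 0 on plates 2 to 5, against 66.4 and 53.3 CPM on the AGM plates. The higher count was 2 without fetal liver plate 4, and Ltb was not called (0.114).

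Among markers of other cell types, those of mesenchyme and smooth muscle were low on the marrow plates. Summed macrophage genes ran from 643 to 827 CPM over the bone marrow plates, against 1015 to 1165 CPM over the AGM plates. Summed epithelial, mesonephric and neural genes ran from 167 to 276 CPM over the bone marrow plates, against 185 to 208 CPM over the AGM plates. Of 16 tested mesenchymal and smooth muscle genes, 0 were higher and 3 (Acta2, Myl9 and Fn1) were lower, and their summed level ran from 12.4 to 83.8 CPM over the bone marrow plates, against 261 to 379 CPM over the AGM plates. Acta2, smooth muscle actin, and Myl9, a myosin light chain, left 1 UMI each in bone marrow, and 1577 and 1730 UMIs in AGM. The part of these cells in the differences above was not tested beyond the values without them. Of 13 macrophage genes 0 were called by edgeR, 6 had an unadjusted p under 0.05, DESeq2 called 1 higher and 2 lower and limma on plates 1 higher and 6 lower, with Apoe at 452 CPM in bone marrow and 662 CPM in AGM (adjusted p = 0.199, and called lower without the mesenchymal-marker cells at 0.0312). Of 8 epithelial, mesonephric and neural genes, 1 was higher and 2 (Stmn2 and Nes) were lower; the higher gene, Krt8, had 0, 6.35, 8.46, 11.3 and 11.4 CPM on the bone marrow plates, against 0 on both AGM plates, and its call (adjusted p = 0.0412) was lost without any of 10 plates. Nes lost its call without any of 5 plates, and without fetal liver plate 4 none of the 8 was called (0 higher and 0 lower), with Stmn2 at an adjusted p of 0.0538 and Nes at 0.333.

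Cytokine signalling genes were called mostly upward in marrow. Of 29 cytokine receptor and JAK-STAT genes, 5, among them Pim1, Socs2, Stat5b and Jak1, were higher and 2 (Il11ra1 and Sh2b3) were lower, with a median log2 difference of 0.58, or 1.20 without the mesenchymal-marker cells; the counts were 8 higher without AGM plate 1 or without the mesenchymal-marker cells, 3 higher and 0 lower without fetal liver plate 4, and 0 lower without bone marrow plate 5. Pim1, a kinase that STAT5 induces, had 729.8, 614, 646, 411 and 273 CPM on the bone marrow plates, against 20 and 22.5 CPM on the AGM plates (4.60 ± 0.42, adjusted p = 1.79e-07, edgeR), a difference of 4.01 without bone marrow plates 1 to 3. Socs2, a feedback inhibitor of the pathway, had 88.7, 65.6, 66.2, 94.8 and 146 CPM on the bone marrow plates, against 7.56 and 0 CPM on the AGM plates (4.36 ± 0.42, adjusted p = 3.8e-07), a difference of 3.76 without AGM plate 2, while no AGM UMI remained without plate 1. Stat5b averaged 34.7 CPM in bone marrow and 2.78 CPM in AGM (3.64 ± 0.71, adjusted p = 0.00175), and was not called without fetal liver plate 4 (0.0742).

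Of 30 homing and adhesion genes, 4 (Selplg, Alcam, Itgb7 and Cd63) were higher and 3 (Cd44, Icam2 and Esam) lower in bone marrow. Selplg, the ligand of P-selectin, averaged 142 CPM in bone marrow and 41.0 CPM in AGM (1.79 ± 0.30, adjusted p = 0.000452, edgeR), a difference of 2.45 without the mesenchymal-marker cells. Cd44, the hyaluronan receptor, was lower, at 84.6 CPM in bone marrow and 228 CPM in AGM (-1.43 ± 0.27, adjusted p = 0.00129), as was Icam2, at 97.5 CPM in bone marrow and 224 CPM in AGM (-1.20 ± 0.26, adjusted p = 0.00469). Without fetal liver plate 4, 0 were called, with Selplg at an adjusted p of 0.0711, Cd44 at 0.0966 and Icam2 at 0.185. Without bone marrow plate 5, 2 were higher, and without AGM plate 2 or bone marrow plate 3, 5 were lower. All 8 Gimap genes, GTPases of lymphocyte survival, had positive differences, and 5 (Gimap1, Gimap3, Gimap7, Gimap8 and Gimap9) were called higher. Gimap7 had 6.02, 8.78, 7.55, 12.7 and 12.9 CPM on the bone marrow plates, against 0 on both AGM plates, at least 78.0-fold higher (adjusted p = 0.000132) and at least 26.6-fold without AGM plate 1. The Gimap count was 3 without bone marrow plate 1 or 5, and 2 without fetal liver plate 4.

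Metabolic genes were mostly not called, as were most tested genes. Of 26 genes listed under glucose uptake and glycolysis, 4 (Aldoc, Car2, Ldhb and Pdk1, 15.4%) were higher and 1 (3.85%) was lower in bone marrow. Car2, the carbonic anhydrase named above with the erythroid genes, is not an enzyme of glycolysis, and the 15.4% includes it. The shares over all tested genes were 5.29% and 3.63%. The list had a median log2 difference of 0.09. Aldoc, a brain-type aldolase, averaged 24.7 CPM in bone marrow and 1.11 CPM in AGM (4.47 ± 0.85, adjusted p = 0.00149, edgeR). The lower gene was Slc2a1, the glucose transporter GLUT1, at 24.1 CPM in bone marrow and 83.9 CPM in AGM (-1.80 ± 0.36, adjusted p = 0.0021). Without fetal liver plate 4, 1 (Car2) was higher and 0 lower, with Aldoc at an adjusted p of 0.0535 and Slc2a1 at 0.094 (edgeR). Without bone marrow plate 5, 2 were higher. Of 29 FoxO, antioxidant and survival genes, 2 (Txnip and Sesn1, 6.90%) were higher and 1 (3.45%) lower, near the shares over all tested genes. The counts were 6 higher without AGM plate 1 and 5 higher without the mesenchymal-marker cells. They were 1 higher and 0 lower without fetal liver plate 4, with Sesn1 at an adjusted p of 0.1805 (edgeR). The lower gene was Gpx3, an extracellular glutathione peroxidase, with 4.08, 8.91, 0, 0 and 0 CPM on the bone marrow plates, against 68.6 and 69.6 CPM on the AGM plates (-4.80 ± 0.90, adjusted p = 0.00129), a difference of -5.62 without bone marrow plate 2, -4.01 without plates 4 and 5 and -3.79 without the mesenchymal-marker cells, and a call lost without fetal liver plate 4 (0.0603). Of 92 nuclear genes of the respiratory chain 1 was higher, Uqcrh, and of 12 mitochondrial genome genes 1 was higher, mt-Co1; both calls (adjusted p of 0.0435 and 0.0395) were each lost without any of 8 plates.

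Cytosolic ribosomal protein genes had the largest count of calls of any list and lost it under several alternatives. Of 81 tested, 59 were higher and 0 lower in bone marrow, with a median log2 difference of 1.05. They made up 20.5%, 23.1%, 21.0%, 33.1% and 28.4% of UMIs on bone marrow plates 1 to 5, against 15.1% and 15.4% on the AGM plates. Rps9 had 3379, 4062, 3334, 6665 and 5374 CPM on the bone marrow plates, against 1941 and 1977 CPM on the AGM plates (1.30 ± 0.31, adjusted p = 0.00848, edgeR). The share moved with depth: the median UMIs per cell were 92658, 68299, 88133, 29964 and 38944 on the bone marrow plates, against 155534 and 165904 on the AGM plates, and the shallowest plates held the highest shares. The highest count of any gene in a cell was 981 UMIs in bone marrow and 797 UMIs in AGM, and the most abundant gene of a plate was 1.70 to 1.97 times its 50th gene on the bone marrow plates and 1.54 to 1.57 times on the AGM plates. The part of depth in this difference was not tested. None of the 81 was called without fetal liver plate 4 or with bone marrow and AGM alone in the fit, 1 was called without the mesenchymal-marker cells, and the count was 26 with bone marrow plate 2 left out, 22 with bone marrow plate 5 left out, 33 with fetal liver plate 2 left out and 30 with fetal liver plate 3 left out.

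**Figure D5:**
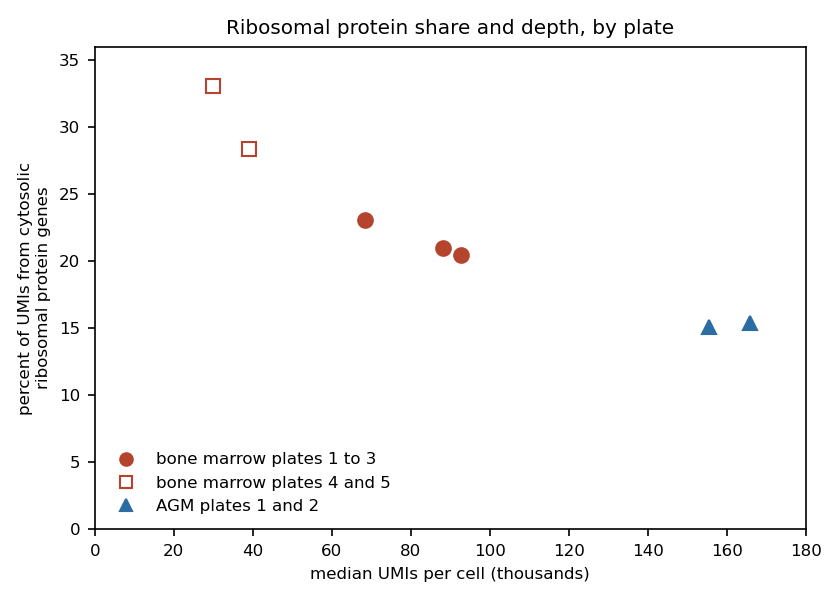
Share of a plate's UMIs from cytosolic ribosomal protein genes (y axis, percent) against its median UMIs per cell (x axis), 1 point a plate, with the 5 bone marrow plates and the 2 AGM plates in separate colours. Bone marrow plates 4 and 5 are the shallowest, with 33.1% and 28.4%, and the AGM plates are the deepest, with 15.1% and 15.4%.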

How the data were processed

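Cytoplasmic RNA of single cells was sequenced by scSTRT-seq, per the labels' protocols. The authors deposited whole-number UMI counts per gene symbol and well, with no normalization. UMI-tools, featureCounts and SAMtools with the mm10 build are listed in the submitters' processing notes. Their versions were not given in the sources used here. Nor were annotation or strand, so reads of overlapping or antisense genes may be mixed.

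Kept wells were summed per plate and per origin code. No doublet caller was run, since cells were sorted into wells, and wells with both Xist and Y-linked RNA were kept. Genes were filtered with filterByExpr (minimum count 10), scaled by TMM and tested with edgeR 4.0.16 in R 4.3.3 on 5 code libraries, with tissue as the only term. The fit had 2 residual and 18.0 prior degrees of freedom, and its common coefficient of variation was 0.619. An SE is the log2 difference divided by the square root of its F. Nothing says that codes or plates are separate animals, so p-values measure only the spread between these libraries. Intervals and floors cover counting error alone. The fitting steps were tested on simulated data with a smaller spread than this fit found. That test checks the steps and does not measure the error rate of these calls. DESeq2 1.42.0 and limma 3.58.1 were alternatives. Promoters came from RefSeq (GRCm38.p6), and 98.1% of 22307 gene symbols had a position.

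Genes named were the 8 leading rises and 8 leading falls among called genes of at least 50 CPM whose plates did not overlap (predicted, Xist and Y-linked genes left out), a list of key genes, and up to 4 called members of each of 40 lists, or the 2 most abundant where none was called. A few further list members behind small counts were named after their values were seen. The groups compared and the lists were chosen with earlier results of these data known.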

Additional observations from a re-analysis of the deposited data

Results flagged for a closer look

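For each of the 157 named genes, the 5 bone marrow plates were searched for 1 plate that stood far from the others by Dixon's gap ratio on log2(CPM + 1). Chance gives about 1 in 20 groups where values are normal, but that rate does not apply to genes seen on 1 plate alone. The number flagged is therefore not set against it. Of the 157 genes 18 had such a plate. In most, the plate that stood apart was the single bone marrow plate with any UMI. Plate 2 alone held UMIs of Sox17 (0.135 CPM), Cldn5 (0.135 CPM), Bmx (0.135 CPM), Stmn2 (0.135 CPM) and Lin28b (7.29 CPM). Plate 5 alone held UMIs of Nrp1 (0.307 CPM) and Gja4 (0.307 CPM), plate 3 alone of Hbb-y (0.130 CPM), and plate 4 alone of Acvrl1 (0.454 CPM). Plate 1 alone held UMIs of Acta2 (0.0971 CPM), Myl9 (0.0971 CPM) and Grap (2.43 CPM), and had 2.72 CPM of Crip2, against 0 to 0.130 CPM on the other plates. In the remaining genes a plate stood below the others. Cdkn1a had 0 CPM on plate 1, against 5.33 to 11.1 CPM on the others. Btg2 had 0 CPM on plate 3, against 13.2 to 29.5 CPM. Krt8 had 0 CPM on plate 1, against 6.35 to 11.4 CPM. Alcam had 0.971 CPM on plate 1, against 19.1 to 47.0 CPM. Tpm4 had 0.781 CPM on plate 3, against 6.89 to 13.1 CPM.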

How the results depend on the processing

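Over 30 alternatives, 4694 values of the 157 named genes were recomputed, of which 4383 kept their direction and side of the threshold, 243 lost their call, 48 gained one, 18 turned without a call and 2 turned with one. Cd48 became -2.82 (adjusted p 0.0135, edgeR) without bone marrow plates 1 to 3, and Igfbp4 became 0.11 (adjusted p 0.765) with cells holding a UMI after thinning counted, an alternative chosen after seeing the data; the cause was not tested. The 1380 calls (819 higher, 561 lower) became 3610 (1481 and 2129) with limma on plates, 2748 (1434 and 1314) without bone marrow plates 1 to 3, and 2466 (1327 and 1139) without bone marrow plates 4 and 5. With raw totals 525 were higher, and with plates as libraries 1216 genes were called. Without each plate in turn, calls ran from 329 to 1618, higher from 193 to 1057 and lower from 136 to 591, the lowest all without fetal liver plate 4. With the title's plate number as a replicate block, 982 were called, 602 higher and 380 lower. Deviations of same-numbered plates from their tissue's mean correlated at -0.009, -0.008 and -0.014. The 2 AGM plates deviate from their mean by equal and opposite amounts, so these values cannot decide whether the numbers pair the plates. AGM has 1 origin code, so no fit measured its spread, and genes of few UMIs are limited by depth, above all on bone marrow plates 4 and 5.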
